A study of Homo sapiens with 30 samples.

Results

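Immediate early genes are switched on within minutes by growth factors or stress, without new protein synthesis. Signals through MAP kinases reach factors already bound at their promoters, such as SRF at CArG boxes and CREB or ATF proteins at cAMP response elements. The products include the FOS and JUN families, which pair to form the transcription factor AP-1, zinc-finger factors of the EGR and KLF families, NR4A orphan receptors, and proteins such as ZFP36 that shorten the life of messenger RNAs. Many of these messages are themselves short-lived, so their levels can change within hours.

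A list of 33 genes was followed: immediate early transcription factors and genes that respond with them. Each was measured by its brightest probe set carrying a single gene symbol, and 30 of the 33 had one, of 12690 genes measured in all. FOS, EGR2 and KLF2 had no single-symbol probe set and are not analysed here. Of the 30, 22 were bright enough to be among the 7614 genes tested. The 8 that were measured but not tested are EGR1, EGR3, KLF9, KLF10, NR4A1, NR4A2, SGK1 and ID1.

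Monolayers were kept below 0.01% oxygen, in an incubator without air. RCC4 is a renal carcinoma line that lacks the tumour suppressor VHL. Of the 30 arrays, 20 were of RCC4, either VHL-null or with wild-type VHL put back, called VHL-restored here. Both genotypes were sampled at 0, 1, 2, 4, 6 and 18 h of hypoxia and, after 18 h, at 1 h and 4 h of reoxygenation. HCT116, a colon carcinoma line, took 6 arrays, p53-null and p53 wild type at 0, 12 and 24 h. H1299, a non-small cell lung cancer line, took 4, p53-null and with p53 put back (p53 wild type) at 0 h and 24 h. VHL and p53 status are the only genotype differences that the labels name, and whether a genotype is a single clone is not given in the sources used here. RCC4 at 0 h and 18 h had 2 arrays per genotype, and every other group had 1.

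Entries for 5 control features split the arrays. They are blank on 18 arrays, here called set 1, and present on the other 12, set 2. The 2 h and 6 h arrays of RCC4 and every HCT116 and H1299 array belong to set 1, and the 1 h, 4 h and reoxygenation arrays to set 2. At 0 h and 18 h the first replicate is in set 1 and the second in set 2. The 1 h and 4 h times therefore cannot be told apart from set 2 by comparison with 2 h and 6 h, and the fit of all 20 arrays carries a term for the set. Raw intensities over the hypoxia times of RCC4 are compared with the 0 h array of the same set. Values given for both replicates at 0 h or 18 h, and RCC4 ranges for which no set is named, span both sets. The HCT116 and H1299 values set beside such ranges are all of set 1. Array medians of the listed intensities ranged between 145 and 174 (set 1) or between 201 and 222 (set 2), and null entries made up 18.4% to 40.4% of an array. The highest null share was that of the VHL-restored array at 4 h of reoxygenation. The lowest, 18.4%, was that of VHL-null 0 h replicate 2, against 34.7% and 34.4% on the VHL-null 1 h and 4 h arrays. Null was taken as 0 before levels were centred on the array median. Within set 2, centred levels of 70.3% of all tested genes were higher at 1 h than at 0 h in VHL-null cells, and 67.1% at 4 h. In VHL-restored cells these shares were 63.5% and 61.5%. Of 3 renal markers measured, PAX8 read 126 to 155 in HCT116, 105 to 136 in H1299 and 272 to 564 in RCC4, while the LRP2 and SLC12A1 ranges of RCC4 overlapped those of HCT116 and H1299. Of 8 colon markers, CDX1 was listed at 27 to 44 on all 6 HCT116 arrays and at 18 to 27 in H1299, and was null on 19 of 20 RCC4 arrays. GPA33 and KRT20 were null on all 6 HCT116 arrays and VIL1 on 5, and the CDX2, LGALS4 and CEACAM5 ranges of HCT116 overlapped those of RCC4, while CDH17 was lower in HCT116, at 18 to 46 against 50 to 129 in RCC4. Of 4 lung markers, NKX2-1, SFTPB and SCGB1A1 in H1299 lay within the RCC4 range, and SFTPC was lower in H1299, at 277 to 299 against 330 to 434 in RCC4.

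The H1299 p53 wild-type arrays went against their time labels. ADM, BNIP3, NDRG1 and ENO2, genes known to be induced by hypoxia and looked at for this check after their values were seen, read 132, 5, 169 and 85 on the array labelled 24 h, and 207, 200, 304 and 269 on the array labelled 0 h. In p53-null H1299 cells they read 215, 203, 314 and 243 at 24 h, and 120, null, 146 and 95 at 0 h. The labels were kept, and counts of calls that use these arrays are given with and without them.

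Among the AP-1 and early response genes, BTG1, JUNB, KLF5, JUN and JUND were higher after 1 h of hypoxia than at 0 h in RCC4. At 4 h the same 5 genes and FOSL2 were higher, and SOX4 was lower. No listed gene passed the test at 2 h or 6 h. At 18 h the rise of BTG1 and JUNB was still called. In VHL-restored cells the hypoxia-induced gene ENO2 read 259, 1293, 1309 and 1200 at 0, 1, 4 and 18 h on set 2 arrays. It read 205, 281, 611 and 909 at 0, 2, 6 and 18 h on set 1. BNIP3 read 120, 516, 562 and 511, then 34, 74, 186 and 310. ADM was already 364 at 2 h, against 53 at 0 h. By ENO2 and BNIP3, 1 h lay near 18 h and 2 h closer to 0 h, so an early response is not shown. The cause was not tested. In whole cultures, fewer cells that express a gene and less RNA per cell cannot be told apart.

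JUNB, an AP-1 subunit, moved most among the JUN genes. In VHL-null cells JUNB intensity on set 2 arrays was 864 at 0 h, 1556 at 1 h, 1474 at 4 h and 1378 at 18 h, and on set 1 arrays it was 372 at 0 h, 329 at 2 h, 432 at 6 h and 577 at 18 h. In VHL-restored cells JUNB on set 2 arrays was 851, 1254, 1206 and 1172 at 0, 1, 4 and 18 h, and on set 1 arrays 385, 384, 411 and 514 at 0, 2, 6 and 18 h. Within set 2 every hypoxic array lay above the 0 h array of its genotype, and within set 1 the 18 h arrays were the highest. The log2 change was 0.86 ± 0.17 at 1 h, 0.78 ± 0.17 at 4 h and 0.58 ± 0.13 at 18 h (SE, adjusted p = 0.0129, 0.00988 and 0.0269 in limma). At 2 h its change was -0.04, and it was not called.

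JUN, the founding AP-1 subunit, followed at lower amplitude. In VHL-null cells JUN was 1106, 1478, 1446 and 1432 at 0, 1, 4 and 18 h on set 2 arrays and 757, 791, 811 and 816 at 0, 2, 6 and 18 h on set 1 arrays. In VHL-restored cells JUN was 984, 1312, 1410 and 1227 on set 2 arrays and 647, 765, 726 and 837 on set 1 arrays at the same times. All hypoxic arrays were above the 0 h array of their genotype and set, by a wider margin in set 2. The change was 0.57 ± 0.14 at 1 h and 0.58 ± 0.14 at 4 h (log2, SE, limma adjusted p = 0.0342 and 0.0132).

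JUND, an AP-1 subunit that most cells already express at rest, changed by less than JUNB or JUN. In VHL-null cells JUND was 1440, 1579, 1608 and 1612 at 0, 1, 4 and 18 h on set 2 arrays and 962, 1004, 1065 and 1081 at 0, 2, 6 and 18 h on set 1 arrays. In VHL-restored cells JUND was 1422, 1542, 1573 and 1514 on set 2 arrays and 1064, 1022, 979 and 1056 on set 1 arrays. Its set 2 arrays at 1 h and 4 h were above 0 h in both genotypes, while its VHL-restored set 1 arrays under hypoxia were below 0 h in raw intensity. The change was 0.29 ± 0.08 at 1 h and 0.30 ± 0.08 at 4 h (log2, SE, limma adjusted p = 0.0409 and 0.0189). The raw JUND intensities of set 2 rose by less than these changes, which are on the centred scale.

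FOSL2, a FOS-family partner of the JUN proteins, was called at 4 h only. In VHL-null cells its raw intensity on set 2 arrays was 366 at 0 h, 350 at 1 h, 363 at 4 h and 342 at 18 h, and in VHL-restored cells it was 326, 344, 374 and 342. The VHL-null raw values were not above 0 h, and the difference appears after centring, where the VHL-null level was 0.52 at 0 h and 0.75 at 4 h and the VHL-restored level was 0.53 and 0.85 (log2 relative to the array median). The change was 0.28 ± 0.07 (log2, SE, limma adjusted p = 0.0195), and it lost its call without the array set term (0.06, adjusted p = 0.853).

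BTG1, an antiproliferative cofactor, had the largest rise. In VHL-null cells BTG1 was 393, 516, 592 and 554 at 0, 1, 4 and 18 h on set 2 arrays and 319, 295, 365 and 446 at 0, 2, 6 and 18 h on set 1 arrays. In VHL-restored cells BTG1 was 371, 845, 935 and 766 on set 2 arrays and 364, 291, 340 and 582 on set 1 arrays. Its 1 h, 4 h and 18 h arrays did not overlap with 0 h in either genotype, while its 2 h arrays were below 0 h. The change was 0.90 ± 0.17 at 1 h, 1.05 ± 0.17 at 4 h and 0.70 ± 0.13 at 18 h (log2, SE, limma adjusted p = 0.0108, 0.00156 and 0.0115).

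KLF5, a zinc-finger factor of proliferating epithelium, was higher at 1 h and 4 h than at 0 h, with the higher values in VHL-restored cells. In VHL-null cells KLF5 was 257, 292, 263 and 300 at 0, 1, 4 and 18 h on set 2 arrays and 140, 140, 154 and 147 at 0, 2, 6 and 18 h on set 1 arrays. In VHL-restored cells KLF5 was 238, 451, 422 and 406 on set 2 arrays and 156, 169, 174 and 195 on set 1 arrays. A second KLF5 probe set moved the same way in VHL-restored cells, at 139, 406, 352 and 336 on set 2 arrays. The shared change was 0.64 ± 0.14 at 1 h and 0.50 ± 0.14 at 4 h (log2, SE, limma adjusted p = 0.0247 and 0.0376). A difference between the genotypes at these single-array times was not tested.

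**Figure D1:**
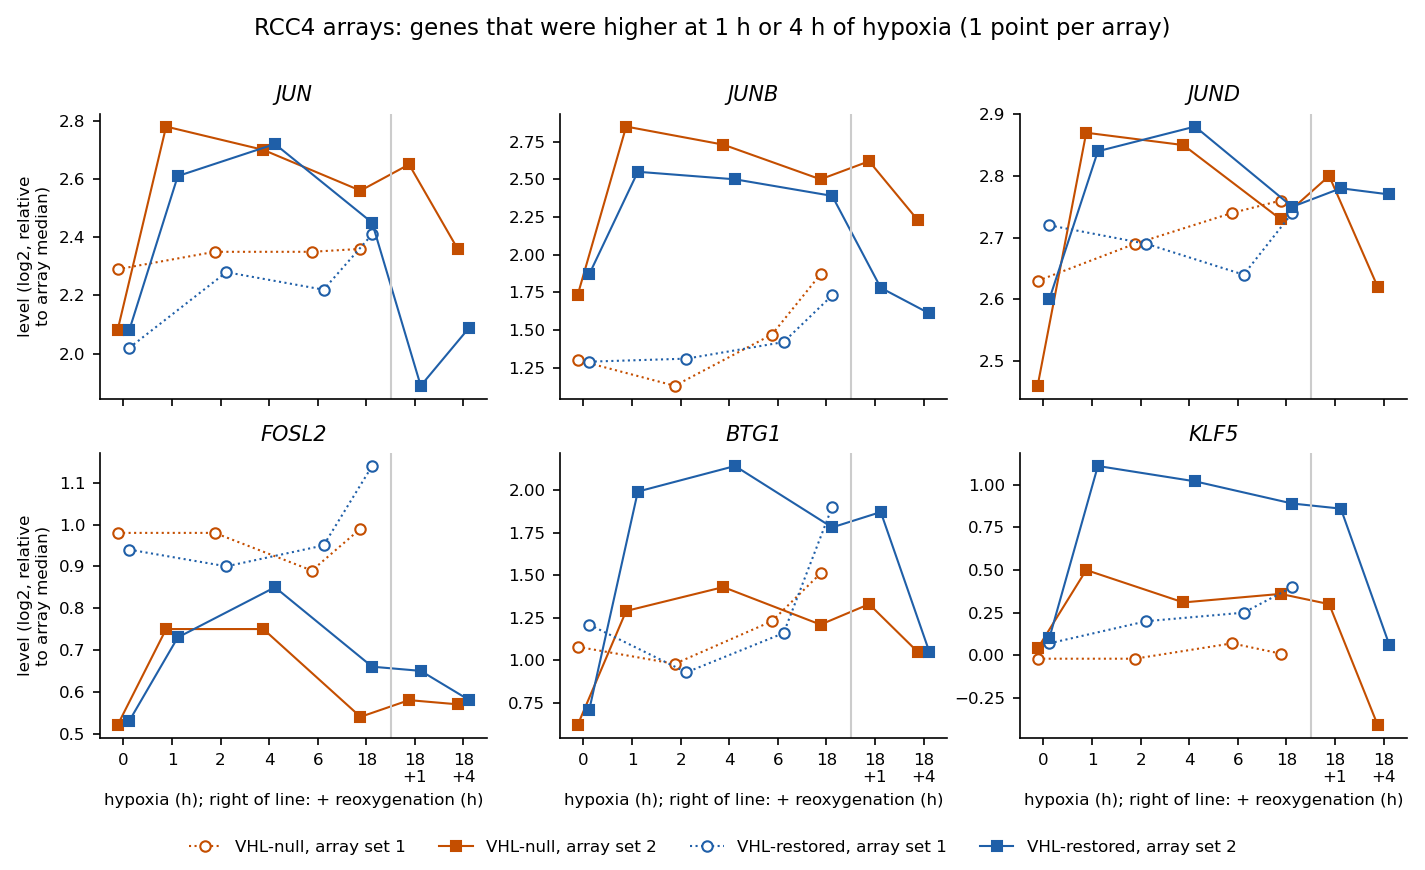
Level of 6 genes on each RCC4 array (log2 of intensity plus 16, relative to the array median) against hours of hypoxia and, right of the grey line, hours of reoxygenation after 18 h. Orange is VHL-null and blue VHL-restored, filled squares are set 2 and open circles set 1. The JUNB and BTG1 squares at 1 h and 4 h lie above the 0 h squares in both genotypes, while the circles at 2 h and 6 h stay near 0 h.

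Counted over the list, 5 of 22 tested genes were called higher and 0 lower at 1 h, where 2.43% of all 7614 tested genes were called higher and 1.18% lower. At 4 h, 6 were higher and 1 lower, against 7.18% and 3.45% of all tested genes. At 18 h, 2 were higher and 0 lower, against 1.77% and 1.18%. The median change of the 22 genes was 0.22 at 1 h and 0.21 at 4 h, beside 0.06 and 0.05 over all tested genes (log2). At 2 h and 6 h limma called 0 of the 22, with 3 and 2 at an unadjusted p under 0.05, where 0.144% and 0% of all genes were called in either direction. IER5 had values of 0.57 at 1 h and 0.59 at 4 h and PHLDA2 of 0.50 at 2 h (log2), and none of these passed.

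These calls rest on few arrays. Of the 5 genes called at 1 h, BTG1 alone stayed called without the VHL-null 1 h array or without VHL-null 0 h replicate 2, JUNB alone without VHL-restored 0 h replicate 2, and 0 genes without the VHL-restored 1 h array. Without VHL-null 18 h replicate 2 or VHL-restored 18 h replicate 1, 3 stayed called. At 4 h the count of 7 became 3 without the VHL-null 4 h array, 2 without the VHL-restored 4 h array, and 3 without either 0 h replicate 2, while the calls over all genes numbered 209, 564, 529 (VHL-null 0 h) and 365 (VHL-restored 0 h) in these cases, against 810 with every array. BTG1 stayed called at 4 h in all of these cases, at 0.83 without the VHL-restored and 1.27 (log2) without the VHL-null 4 h array. SOX4 lost its call at 4 h without the VHL-restored 4 h array (-0.44, adjusted p = 0.277) or VHL-restored 0 h replicate 2 (-0.53, adjusted p = 0.149). At 18 h JUNB lost its call when any of the 8 replicated arrays other than VHL-restored 0 h replicate 2 was left out (0.49 to 0.63), and BTG1 without VHL-restored 18 h replicate 2 (0.61, adjusted p = 0.0505).

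With the 8 replicated arrays alone, 0 of 22 genes were called for 18 h of hypoxia in either genotype in limma, with 1 of 22 in VHL-null and 4 in VHL-restored cells at an unadjusted p under 0.05, and 0% and 0.0394% of all genes called in either direction. With the replicate number, which equals the array set at these times, as a block, JUNB (0.67) and BTG1 (0.51) were called higher in VHL-null cells (adjusted p = 0.00316 and 0.0472), where 0.276% of all genes were higher. In VHL-restored cells BTG1 (0.88), KLF5 (0.56), JUNB (0.48) and JUN (0.39) were higher (adjusted p = 6.02e-05, 0.00649, 0.00659 and 0.0397) and SOX4 fell by 0.62 (adjusted p = 0.0123), where 3.7% and 2.88% of all genes were higher and lower.

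**Figure D2:**
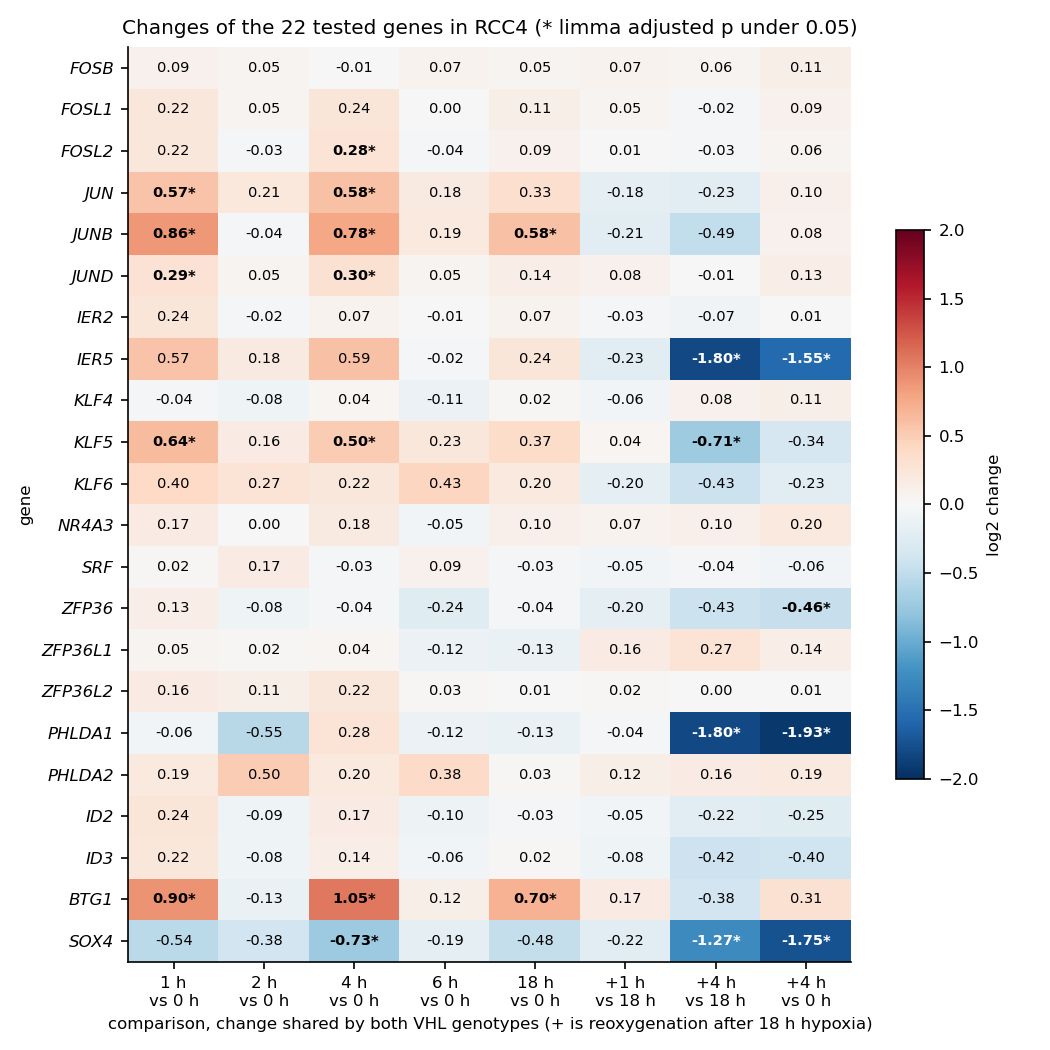
Log2 change of each of the 22 tested genes (rows) in 8 RCC4 comparisons (columns), shared by both VHL genotypes; red is higher in the hypoxic or reoxygenated cells, blue lower, and an asterisk marks a limma adjusted p under 0.05. BTG1 and JUNB carry asterisks at 1, 4 and 18 h, and PHLDA1, SOX4 and IER5 carry them in both columns for 4 h of reoxygenation.

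The promoters of the 6 genes that were higher at 1 h or 4 h were searched on both strands, from 250 bases before to 50 after the RefSeq start (GRCh38.p14), for 5 motifs. These were the CArG box, the cAMP response element TGACGTCA, the TGACG core within that element, the hypoxia response core ACGTG and TGANTCA. The last pattern, with any base at N, is wider than the AP-1 site TGA(C/G)TCA. The TGACG core was picked for display after all 5 motifs had been searched and the values were known, because all 6 of these genes held it, so the match carries no test. The stretches below show it in capitals, on either strand, with flanking bases.
JUN: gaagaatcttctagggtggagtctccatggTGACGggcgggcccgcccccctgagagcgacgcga
JUNB: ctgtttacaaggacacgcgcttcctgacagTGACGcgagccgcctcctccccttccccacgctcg
JUND: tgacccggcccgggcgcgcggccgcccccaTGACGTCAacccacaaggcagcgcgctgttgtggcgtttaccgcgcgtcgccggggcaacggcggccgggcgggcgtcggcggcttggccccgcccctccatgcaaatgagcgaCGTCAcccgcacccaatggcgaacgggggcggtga
FOSL2: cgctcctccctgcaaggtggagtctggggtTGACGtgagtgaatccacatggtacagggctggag
BTG1: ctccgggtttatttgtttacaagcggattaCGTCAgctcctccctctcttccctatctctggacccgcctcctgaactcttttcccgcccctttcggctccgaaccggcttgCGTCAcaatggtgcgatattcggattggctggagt
KLF5: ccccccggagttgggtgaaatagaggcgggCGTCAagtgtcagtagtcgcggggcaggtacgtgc

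These stretches lie at chr1:58784136-58784200 on the minus strand (JUN), chr19:12791319-12791383 on the plus strand (JUNB), chr19:18281674-18281852 on the minus strand (JUND), chr2:28392762-28392826 on the plus strand (FOSL2), chr12:92145922-92146068 on the minus strand (BTG1) and chr13:73058961-73059025 on the plus strand (KLF5). JUND holds the full element, which contains overlapping cores on both strands. FOSL2 has a further core that is not shown. KLF5 has 2 promoters in the table, and only the second, shown here, holds the core.

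The TGACG core is common in the list and in the genome. It was in 16 of the 27 listed genes with a promoter in the table, and in 24.6% of 35116 promoters. Here and for the other motifs a gene counts if any of its promoters holds the motif. Some listed genes have more than 1 promoter, while the share of 35116 counts each promoter singly, so these measures are unlike. Among the 16 were 10 of the 17 neither called higher at 1 h or 4 h nor lower at 4 h of reoxygenation. Those 10 include FOS and EGR2, which were not measured, and EGR1, which was not tested, so these could not be called. Of the 5 genes called lower at 4 h of reoxygenation (PHLDA1, SOX4, IER5, ZFP36 and KLF5), KLF5 held it, and KLF5 is in both groups. The other motifs did not mark the 6 genes: the CArG box was in 0 of them, in 3 of the 27 (EGR1, EGR2 and SRF) and in 1.29% of promoters. The full cAMP response element was in 1 of the 6 (JUND), 2 of the 27 and 1.85%, TGANTCA in 1 of the 6 (FOSL2), 1 of the 27 and 7.71%, and ACGTG in 2 of the 6, 11 of the 27 and 21.4%. FOSL1, EGR3, KLF10, NR4A2, ZFP36L2 and PHLDA2 had no promoter in the table. A match of letters does not show binding.

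After 4 h of reoxygenation PHLDA1, IER5, SOX4 and KLF5 were lower than at 18 h of hypoxia. PHLDA1, SOX4, IER5 and ZFP36 were lower than at 0 h. At 1 h of reoxygenation limma called 0 of 22 genes against 18 h, with 0 at an unadjusted p under 0.05, where 0% of all genes were called. At 4 h of reoxygenation, 0 genes were called higher and 4 lower against 18 h, beside 0.946% and 1.68% of all tested genes, and 0 higher and 4 lower against 0 h, beside 6.99% and 3.97%. The median change against 18 h was -0.14 for the 22 genes and 0.07 for all tested genes.

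PHLDA1, a pleckstrin-homology protein linked to cell death and to receptor signalling, fell most, together with IER5. In VHL-null cells PHLDA1 was 178 and 226 at 18 h, 264 at 1 h of reoxygenation and 37 at 4 h. In VHL-restored cells it was 496 and 716, 499 and 178 at the same points. The 4 h array was the lowest of its genotype over all states in both genotypes. The second probe set of PHLDA1 read 66 in VHL-null and 35 in VHL-restored cells at 4 h of reoxygenation, against 72 and 129 in VHL-null and 170 and 114 in VHL-restored cells at 18 h. The change was -1.80 ± 0.25 against 18 h and -1.93 ± 0.25 against 0 h (log2, SE, limma adjusted p = 0.000975 and 0.00042).

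SOX4, a developmental transcription factor, fell at 4 h of hypoxia and further at 4 h of reoxygenation. In VHL-null cells SOX4 on set 2 arrays was 389 at 0 h, 232 at 1 h, 249 at 4 h and 216 at 18 h, then 208 and 82 at 1 h and 4 h of reoxygenation. In VHL-restored cells it was 789, 393, 287 and 466, then 365 and 150. Both 4 h reoxygenation arrays were the lowest of their genotype, and on set 1 the VHL-null arrays stayed at 216 to 274 while VHL-restored SOX4 was 497 at 0 h and 321 to 346 under hypoxia. SOX4 changed by -0.73 ± 0.19 at 4 h of hypoxia (adjusted p = 0.0266), by -1.27 ± 0.19 at 4 h of reoxygenation against 18 h and by -1.75 ± 0.19 against 0 h (log2, SE, limma adjusted p = 0.00213 and 0.000119).

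IER5, an immediate early protein that works with the heat shock factor HSF1, was 569 at 18 h in VHL-null cells of set 2, 594 at 1 h of reoxygenation and 215 at 4 h. In VHL-restored cells IER5 was 378, 245 and 48 at these points. Set 1 arrays were far dimmer for this gene, at 94 to 155 in VHL-null and 101 to 162 in VHL-restored cells, so its level is read only within set 2. The change at 4 h of reoxygenation was -1.80 ± 0.33 against 18 h and -1.55 ± 0.33 against 0 h (log2, SE, limma adjusted p = 0.00802 and 0.0108).

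KLF5, higher under hypoxia, was 300 at 18 h, 274 at 1 h and 148 at 4 h of reoxygenation in VHL-null cells of set 2, and 406, 370 and 180 in VHL-restored cells. Both 4 h arrays were lower than every other set 2 array of their genotype. KLF5 changed by -0.71 ± 0.14 against 18 h (log2, SE, limma adjusted p = 0.0163). ZFP36, which binds AU-rich elements and destabilises messages, was 187, 182 and 131 in VHL-null cells and 184, 125 and 98 in VHL-restored cells of set 2 at 18 h and at 1 h and 4 h of reoxygenation. ZFP36 at 0 h on the same set was 201 in VHL-null and 212 in VHL-restored cells, and its change against 0 h was -0.46 ± 0.14 (log2, SE, limma adjusted p = 0.0405).

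The VHL-restored array at 4 h of reoxygenation carried the highest null share, so the calls were also made without it. Without it PHLDA1 was still lower than at 18 h by limma (-2.25, adjusted p = 0.000517), as was SOX4 (-1.39, adjusted p = 0.0161), while IER5 (-1.07, adjusted p = 0.165) and KLF5 (-0.76, adjusted p = 0.0796) lost their calls. Against 0 h, ZFP36 and IER5 lost theirs (-0.38 and -0.82, adjusted p = 0.343 and 0.254), as they did without VHL-restored 0 h replicate 2 (-0.38 and -1.39). KLF5 also lost its call without VHL-null 18 h replicate 2 (-0.70) or VHL-restored 18 h replicate 2 (-0.60), and ZFP36 without VHL-null 0 h replicate 2 (-0.54) or any one 18 h array. Within set 2, 4 of the 22 genes were higher at 4 h of reoxygenation than at 18 h in VHL-null cells, beside 44.8% of all tested genes, and 9 in VHL-restored cells, beside 74.7%.

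**Figure D3:**
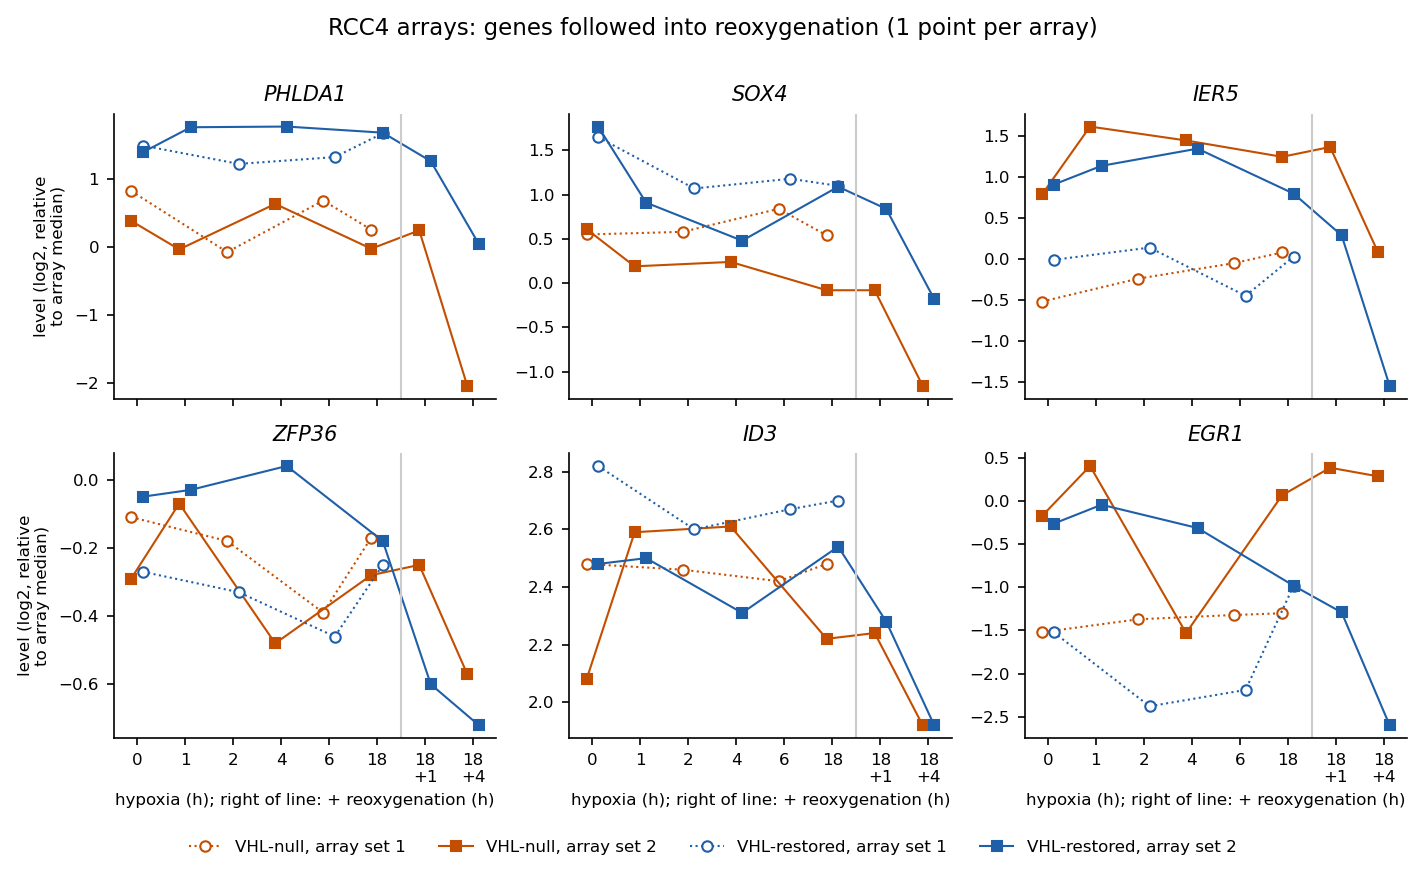
Level of 6 genes on each RCC4 array (log2 of intensity plus 16, relative to the array median), drawn as in the plot of the rising genes. The 4 h reoxygenation points of PHLDA1 and SOX4 are the lowest of both genotypes, and the EGR1 squares of the 2 genotypes part widely at that time.

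EGR1, a zinc-finger factor and a classic early response gene, was too dim to be tested, with a mean log2 level of 6.76 beside a filter limit of 6.80. In VHL-null cells EGR1 was 220, 274, 62 and 242 at 0, 1, 4 and 18 h on set 2 arrays, then 293 and 252 at 1 h and 4 h of reoxygenation, and 39 to 50 on set 1. In VHL-restored cells it was 182, 195, 159 and 99, then 71 and 15, and 15 to 65 on set 1. Set 2 arrays were mostly brighter, and the genotypes parted most at 4 h of reoxygenation, where each has 1 array. The genes whose levels were most like EGR1 over the 20 RCC4 arrays were TUBGCP3 (Pearson r = 0.833), MTRFR (0.822) and ERRFI1 (0.809), values that share the difference between sets. Within set 1 (8 arrays) r was 0.676, 0.906 and 0.027 for these genes in that order, and within set 2 (12 arrays) 0.754, 0.691 and 0.795.

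Of the other untested genes, 5 were null on most arrays. EGR3 and KLF9 were null on all 30 arrays, KLF10 on 29, NR4A2 on 28 and SGK1 on 17. NR4A1 and ID1 were null on 1 array each, and ID1, with a mean log2 level of 6.69, lay just under the filter limit. NR4A1, an orphan nuclear receptor, read 12 to 123 where it was listed, and ID1, an inhibitor of basic helix-loop-helix factors, 41 to 174. With all 12690 genes kept, limma called ID1, SGK1 and NR4A1 lower at 4 h of reoxygenation than at 18 h (-2.15, -2.59 and -1.40, adjusted p = 0.0145, 0.0251 and 0.0277). On the VHL-restored array at that time all 3 were null, and on the VHL-null array ID1 read 58, NR4A1 23 and SGK1 null. With that setting EGR3, KLF9 and NR4A2 came out higher at 4 h of reoxygenation, although all 3 were null on both 4 h arrays, so that these differences are only those of the array medians. Of the 30 genes 3 were called higher and 7 lower with this setting, beside 12.4% and 4.7% of all genes.

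FOSB, a FOS-family gene, read 232 to 356 over all 30 arrays, and NR4A3 621 to 838. FOSL1, another FOS-family gene, read 675 to 906, IER2, an early nuclear protein, 678 to 1046, and SRF, the CArG box factor itself, 347 to 656. KLF6, a zinc-finger factor, had a second probe set that read 412 to 530 on the RCC4 arrays, flat where the brighter one ranged more widely, and the second probe set of ZFP36L1 read 72 and 53 in VHL-null and VHL-restored cells at 4 h of reoxygenation, against 152 and 178 in VHL-null and 219 and 188 in VHL-restored cells at 18 h. FOSB, NR4A3, FOSL1, IER2, SRF, KLF6 and ZFP36L1 were not called at any RCC4 time in the fits without the replicate block.

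Of related genes outside the list, 17 of 24 other early and serum response genes were tested, and 3 were higher at 1 h, 4 h and 18 h: ATF3, CSRNP1 and LIF. ATF3, a stress-induced factor that pairs with JUN proteins, changed by 2.19 ± 0.21 at 1 h and 2.44 ± 0.21 at 4 h (log2, SE, limma adjusted p = 8.62e-05 and 1.97e-05). ATF3 read 292, 1223, 1347 and 891 at 0, 1, 4 and 18 h in VHL-null cells of set 2 and 190, 846, 1116 and 548 in VHL-restored cells. On set 1 it read 64, 94, 83 and 168 at 0, 2, 6 and 18 h in VHL-null cells. In VHL-restored cells of set 1 it read 66, 85, 65 and 234. Of the 17 genes, 0 were called at 2 h or 6 h. The calls of ATF3, CSRNP1 and LIF were not retested with an array left out. At 4 h of reoxygenation against 18 h, 2 of the 17 were lower: CCN1, a matricellular early gene, fell by 1.45 (SE 0.129, limma adjusted p = 1.24e-05) and RHOB by 1.66 (adjusted p = 0.0218). Of 26 upstream kinases and cofactors, 13 were tested, and 1 (MAP2K1, 0.35) was higher at 4 h and 0 at 1 h or 18 h. At 4 h of reoxygenation against 18 h ELK4 was higher (0.42) and MRTFB lower (-0.99). On set 2 MRTFB read 325 at 18 h and 63 at 4 h of reoxygenation in VHL-restored cells, against 305 and 218 in VHL-null cells. RHOB read 84 and 2 in VHL-restored cells, near the floor, and 170 and 66 in VHL-null cells. How far these calls rest on the VHL-restored array, which has the highest null share, was not tested.

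Loss of VHL was tested over all 20 RCC4 arrays, with the states and replicates of a genotype as the repeat. The p-values reflect how arrays and states vary, and the labels name no separately derived lines within a genotype. ID2, an inhibitor of helix-loop-helix factors, was higher in VHL-null cells, and 8 genes were lower: PHLDA1, SOX4, KLF5, BTG1, NR4A3, ZFP36L2, ZFP36L1 and KLF4. Of all tested genes, 12.5% were called higher and 21.6% lower, so the counts of 1 and 8 of 22 stand beside a large background. In the other 2 lists, 6 of 17 early response genes were higher and 2 lower, and 1 of 13 kinases and cofactors was higher and 3 lower. PHLDA1 and SOX4 differed most, by -1.28 ± 0.12 and -0.77 ± 0.09 (log2, SE, limma adjusted p = 7.78e-07 and 1.26e-05).

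The VHL-null arrays were lower than the VHL-restored arrays for PHLDA1 in 10 of 10 pairs of the same state and set, by 0.64 to 2.09 with the brightest probe set, and for SOX4 in 10 of 10, by 0.25 to 1.17. In raw intensity the second PHLDA1 probe set was lower in VHL-null cells in 7 of 10 pairs and higher in 3, and the third was lower in 9 of 9 pairs listed on both arrays. At 0 h PHLDA1 read 265 and 333 in VHL-null cells against 447 and 609 in VHL-restored cells, and SOX4 read 216 and 389 against 497 and 789. At 18 h PHLDA1 read 178 and 226 against 496 and 716, and SOX4 220 and 216 against 326 and 466. On the centred scale KLF5 was also lower in 10 of 10 pairs, by 0.06 to 0.71, with a difference of -0.38 ± 0.07 (log2, SE, limma adjusted p = 0.000496). Its raw intensity was lower in 9 of 10 pairs with the brightest probe set and in 8 of 10 with the second. BTG1 differed by -0.30 ± 0.08 (adjusted p = 0.0113) and ID2 by 0.20 ± 0.04 (adjusted p = 0.00126), and ID2 was lower in 1 of 10 pairs. BTG1 was lower in 7 of 10 pairs, and in raw intensity in 6, with 4 higher. Its difference was -0.7 at 1 h and at 4 h of hypoxia, but -0.13 and -0.09 at 0 h, 0.05 at 2 h and 0.08 at 6 h. The other 4 calls were of -0.12 to -0.15, and 3 of them were lost when 1 array was left out: KLF4 in 15 of 20 cases, ZFP36L1 in 10 and ZFP36L2 in 2. With set 1 arrays alone PHLDA1, SOX4, KLF5, ID2 and also ID3 (-0.24) were called, and KLF4, NR4A3, ZFP36L1, ZFP36L2 and BTG1 were not.

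With the 8 replicated arrays, limma called 0 of 22 genes for VHL at 0 h or at 18 h, with 2 and 2 at an unadjusted p under 0.05, where 0.118% and 0.0263% of all genes were called in either direction. With the replicate block, SOX4 (-1.12), PHLDA1 (-0.84) and ID3 (-0.37) were lower at 0 h (adjusted p = 6.11e-05, 0.000119 and 0.0289), beside 4.41% of all genes. At 18 h PHLDA1 (-1.57), SOX4 (-0.86), BTG1 (-0.48) and KLF5 (-0.46) were lower (adjusted p = 1.75e-07, 0.000847, 0.0101 and 0.021), beside 3.97%. The difference between the genotypes in their response to 18 h was called for PHLDA1 with the block (-0.73, adjusted p = 0.0490), where 0.499% of genes were lower, and for 0 genes without it, with 1 at an unadjusted p under 0.05. For reoxygenation the VHL interaction called 0 of 22 genes and 0% of all genes, with 1 of 22 at an unadjusted p under 0.05.

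**Figure D4:**
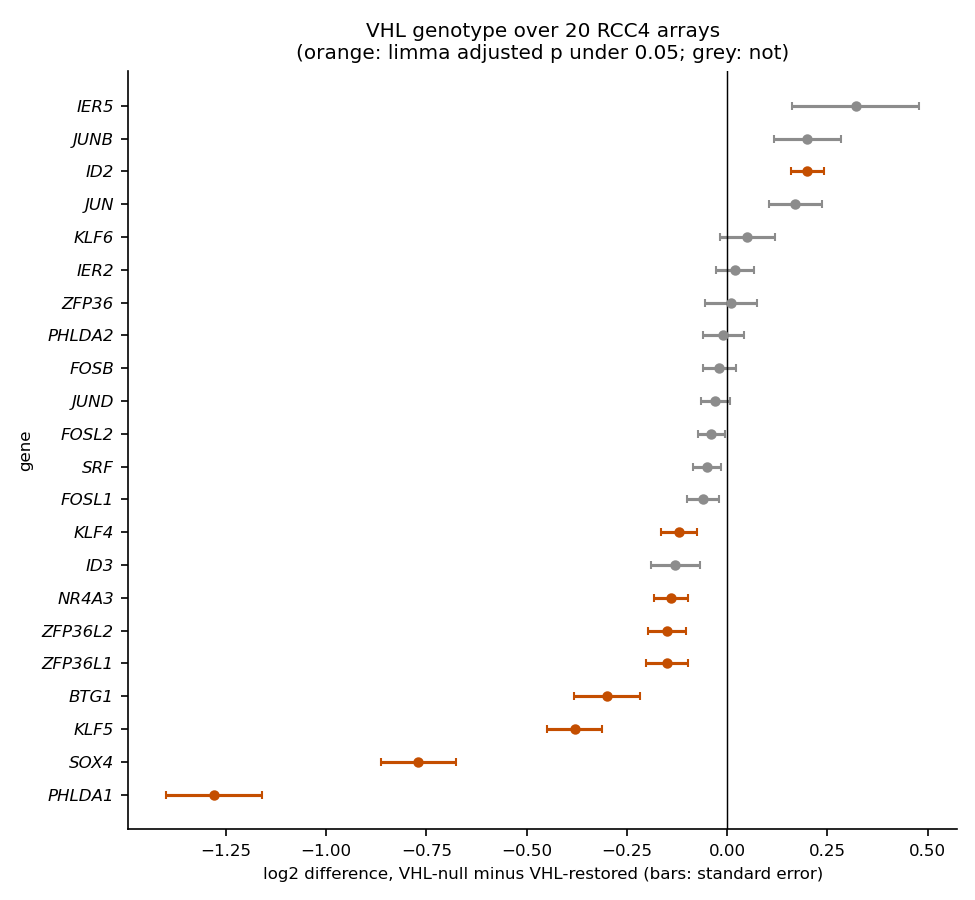
Difference between VHL-null and VHL-restored RCC4 cells over all states (log2, VHL-null minus VHL-restored) for the 22 tested genes, with the standard error as bars. Orange points have a limma adjusted p under 0.05; PHLDA1 (-1.28) and SOX4 (-0.77) lie farthest left.

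In H1299 and HCT116 cells limma called 0 of 22 genes at 24 h, with 3 at an unadjusted p under 0.05, and 0 of all 7614 genes. PHLDA1 was 152 and 145 at 24 h in p53-null and p53 wild-type HCT116 cells, against 44 and 62 at 0 h, and was null or at most 23 in H1299, by its brightest probe set. The second probe set went the other way in HCT116, at 189 and 240 at 24 h in p53-null and p53 wild-type cells, against 438 and 359 at 0 h, and read 197 to 227 in H1299. Without both H1299 genotypes the brightest PHLDA1 probe set was higher by 1.28 ± 0.15 (log2, SE, limma adjusted p = 0.0296), beside 2.02% of all genes higher, a direction that the second probe set does not share. Without the H1299 p53 wild-type arrays alone, limma called 0 of 22 genes and 1.27% of all genes.

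The H1299 genotypes moved in opposite directions by their labels. BTG1 read 422 at 24 h and 220 at 0 h in p53-null cells, and 212 on the array labelled 24 h and 489 on that labelled 0 h in p53 wild-type cells. ID3, an inhibitor of helix-loop-helix factors, read 471 at 24 h and 1056 at 0 h in p53-null cells, and 1066 and 417 on the arrays labelled 24 h and 0 h in p53 wild-type cells. In HCT116 BTG1 read 449 and 312 at 24 h against 545 and 518 at 0 h. The 4 hypoxia-induced genes given above differed between these H1299 arrays in the same opposite way.

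Hypoxia for 12 h in HCT116 called 0 of 22 genes in limma, with 0 at an unadjusted p under 0.05, and p53 loss called 0, with 3. Late hypoxia over 6 backgrounds called 0, with 4, and the difference between HCT116 and RCC4 in late hypoxia called 0, with 4. In each of these 4 comparisons 0% of all genes were called. Without the H1299 p53 wild-type arrays, late hypoxia called 0 of 22 genes, p53 loss 0, the difference between HCT116 and RCC4 0 and 12 h of hypoxia in HCT116 0, beside 0.0657%, 0.0263%, 0.0263% and 0.171% of all genes. The p53 test then rests on HCT116 alone, because the p53-null H1299 arrays have no p53 wild-type array to be compared with.

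At 0 h HCT116 and H1299 differed widely from RCC4. In HCT116, 9 of 22 genes were higher and 2 lower, beside 22.6% and 14.5% of all genes, and in H1299 5 were higher and 2 lower, beside 20.1% and 13.1%. ZFP36 read 537 and 445 in p53-null and p53 wild-type HCT116 cells, against 120 to 212 in RCC4, a difference of 2.00 ± 0.15 (log2, SE, limma adjusted p = 0.000114). PHLDA1 was 44 and 62 in HCT116 against 265 to 609 in RCC4 by its brightest probe set (-2.24 ± 0.41, adjusted p = 0.00512). Its second probe set went the other way, at 438 and 359 in HCT116 against 76 to 155 in RCC4, so no direction for PHLDA1 between these lines is settled. SOX4 read 78 and 75 in HCT116 against 216 to 789 in RCC4 (-1.74 ± 0.45, adjusted p = 0.0202). PHLDA2, a relative of PHLDA1, was 1110 and 1386 in HCT116 against 450 to 992 (1.56 ± 0.12, adjusted p = 0.000144). SOX4 lost its HCT116 call without VHL-restored 0 h replicate 1 (-1.19, adjusted p = 0.123) or either HCT116 array. The H1299 comparison includes the p53 wild-type array labelled 0 h, without which 2 of 22 genes were higher and 3 lower, beside 13.5% and 10.1% of all genes.

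**Figure D5:**
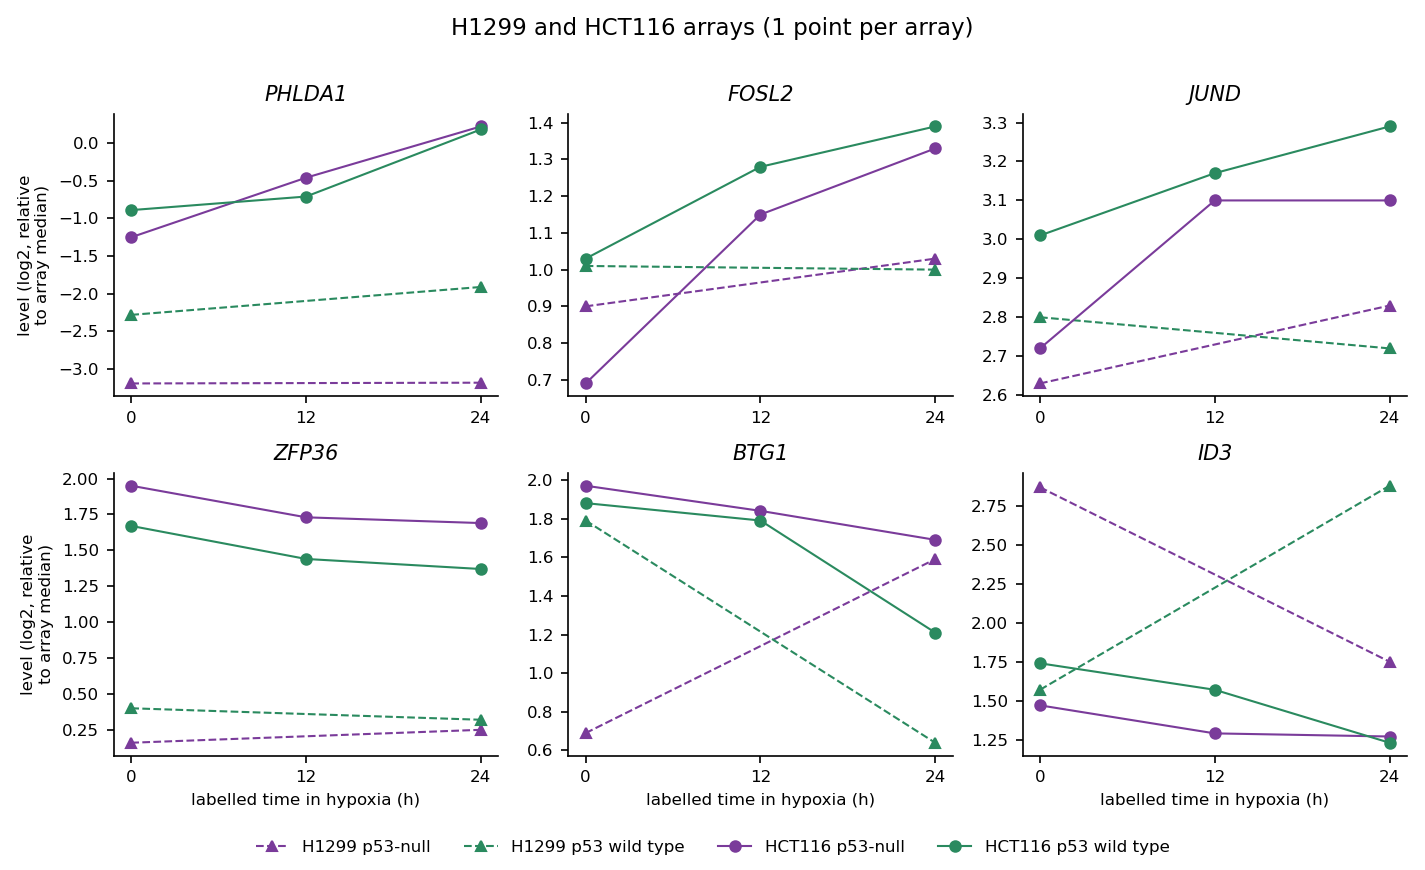
Level of 6 genes on each H1299 and HCT116 array (log2 of intensity plus 16, relative to the array median) against the labelled hours of hypoxia. Purple is p53-null and green p53 wild type, triangles with dashed lines are H1299 and circles HCT116. The BTG1 and ID3 lines of the 2 H1299 genotypes cross, and PHLDA1, by its brightest probe set, is higher at 24 h than at 0 h in both HCT116 genotypes.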

How the data were processed

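The deposited values are linear intensity, in whole numbers, from biotin-labelled RNA on Affymetrix arrays, per the labels' protocols. The authors' scaling and the meaning of null entries are not given in the sources used here. From the deposited intensity, null was taken as 0, values became log2(value + 16), and each array was centred on its median over 12690 genes (16905 single-symbol probe sets of 35356, 573 with several symbols and the rest with none were left out, the brightest probe set per gene). The upper 60% by mean, 7614 genes, went into limma 3.58.1 (R 4.3.3). Tests were two-sided, p-values were adjusted by Benjamini-Hochberg over all 7614, and the threshold was 0.05. A change is on this log2 scale, which understates changes of dim genes.

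The 8 replicated RCC4 arrays were fitted as 4 group means. All 20 were fitted with state, genotype and array set. At times other than 0 h and 18 h each genotype has 1 array, so the genotypes serve as the repeat. Only a change shared by both was tested there, and its p-value is not one of replicate cultures. For HCT116 and H1299, each line and genotype formed a block in the tests of time, and each line and time in the test of p53. Replicate differences correlated 0.794 to 0.916 over 6 pairs of groups, and the replicate number equals the array set at 0 h and 18 h. The series' design text calls the RCC4 replicates at 0 h and 18 h independent without saying what was separate, so a p-value reflects how much these arrays vary, which may be technical. For arrays, their number limits the precision. The fits were tested on simulated data.

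The members and lists were chosen with earlier results of these data known. Every listed gene is accounted for, with values per array for those called in a comparison or among the largest changes. Alternatives were null as missing, a pseudocount of 64, no filter, quantile normalization, the block, no set term and leaving out arrays. Leaving out both H1299 genotypes, 1 array set or a single unreplicated array was chosen after seeing the data.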

Additional observations from a re-analysis of the deposited data

Results flagged for a closer look

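PHLDA1 was the one result whose response to 18 h of hypoxia differed between the VHL genotypes by a test of that difference, at -0.73 (log2, VHL-null minus VHL-restored) with the replicate number as a block (limma adjusted p = 0.0490). PHLDA1 was 178 and 226 at 18 h against 265 and 333 at 0 h in VHL-null cells, and 496 and 716 at 18 h against 447 and 609 at 0 h in VHL-restored cells. Without the block the value was the same and the adjusted p was 1. Leaving out 1 array, also without the block, gave -0.95 to -0.51, and the blocked call was not retested that way. The second probe set of PHLDA1 read 72 and 129 at 18 h against 76 and 123 at 0 h in VHL-null cells, and 170 and 114 at 18 h against 155 and 87 at 0 h in VHL-restored cells.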

How the results depend on the processing

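Of the 64 gene results followed over 13 comparisons, 766 values with an array left out kept direction and side of the threshold and 118 kept direction only. The 64 include the results of the 8 replicated arrays that were called only with the replicate block. Uncalled in the fit without the block, they count as kept when they stay uncalled, as they did with any array left out. The 766, and the numbers kept with other settings below, are therefore not counts of calls that held. FOSL2 at 4 h reversed with the replicate block (-0.17, adjusted p = 0.0498). In the fits of 20 arrays this block does not follow the array set, so by construction it compares set 2 with set 1 arrays: it called 14 listed genes at 1 h (4381 of 7614 genes in all), 14 at 4 h (4697), 11 at 1 h of reoxygenation (4752), 14 at 4 h against 18 h (4500) and 13 against 0 h (4191). With the 8 replicated arrays the block called 2 listed genes for 18 h in VHL-null cells, 5 in VHL-restored cells, 3 for VHL at 0 h, 4 at 18 h and 1 for their interaction (37, 501, 572, 578 and 43 in all). The block did not change the counts of 0 at 2 h and 6 h, 2 at 18 h over both genotypes, 9 for VHL over all states and 0 for VHL by reoxygenation. Taking null as missing kept all 62 gene results it could give, and a pseudocount of 64 kept 61 and ended 3 calls. With no filter on dim genes the counts were 3 at 1 h, 0 at 18 h, and 10 and 11 at 4 h of reoxygenation against 18 h and 0 h (380, 86, 2166 and 3193 in all). Quantile normalization gave 2 at 1 h, 4 at 4 h and 1 at 18 h (267, 930 and 273 in all). Without the array set term there were 3 at 1 h, 0 at 18 h, 2 and 2 at 4 h of reoxygenation and 3 for VHL over all states (104, 13, 61, 252 and 1151 in all; 451 at 4 h of hypoxia). Set 2 alone gave 3 at 1 h and 0 at 18 h (186 and 6), set 1 alone 5 for VHL (1117), and leaving out both H1299 genotypes 1 at 24 h. Leaving out 1 array gave 0 to 6 listed genes at 1 h, 2 to 8 at 4 h, 0 to 3 at 18 h, 2 to 5 and 2 to 6 at 4 h of reoxygenation, 7 to 9 for VHL over all states, 7 to 13 for HCT116 against RCC4 and 4 to 8 for H1299 against RCC4. Over all genes these ranges were 65 to 443, 209 to 1139, 74 to 344, 70 to 823, 106 to 2825, 2059 to 3303, 1681 to 2830 and 1499 to 2399. Apart from the block's own construction, the cause was not tested. Dim genes near the array background and single arrays at most times limit what could be detected.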
